A study of Homo sapiens with 14 samples.

Results

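The valine tRNAs examined here were the 12 loci that carried a valine anticodon among 248 cytosolic tRNA loci. Members were taken by name from the study's supplementary list of crosslink clusters, in which 20 of 493 tRNA clusters were named for a valine tRNA. Clusters less than 40 nt apart were read as 1 locus, which gave 4 loci each for the isoacceptors tRNA-Val-AAC, tRNA-Val-CAC and tRNA-Val-TAC. For each locus the deposited counts were summed on the tRNA strand from 100 nt 5′ to 25 nt 3′ of the cluster. The list itself holds only sites that reached a minimum count in most of the study's experiments, so a valine gene with few counts throughout is not among the members, but no difference between groups entered the choice.

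The study mapped where TRMT2A, a human RNA methyltransferase, is bound or captured on RNA, in 14 libraries of 2 human cell lines. FICC-Seq (fluorouracil-induced catalytic crosslinking and sequencing) was performed on HEK293, an embryonic kidney line, and on HAP1, a near-haploid line, with 3 libraries each. These cells were given 100 µM 5-fluorouracil (5FU) for 24 h without UV light, and the endogenous enzyme was collected with an antibody against TRMT2A. iCLIP used the same antibody after UV crosslinking, also with 3 libraries from each cell line, and miCLIP used 2 HEK293 libraries from cells transfected for 24 h with FLAG-tagged TRMT2A whose catalytic base, a glutamate, had been changed to alanine. miCLIP, like FICC-Seq, works without UV light, since the mutant stays bound to its target. No sample was labelled as lacking TRMT2A, and the labels mark the condition of every sample as Untreated, although the description of the FICC-Seq samples names 5FU. FICC-Seq and iCLIP therefore differ in 5FU and UV light at once, and miCLIP differs from both in the source, tag and sequence of the protein and in the antibody. The effects of these differences cannot be told apart.

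Valine tRNAs read the codons that start with GU. The AAC isoacceptor is modified to inosine at its wobble base and reads several of these codons, whereas CAC and TAC pair mainly with codons that end in G and A. Near the 3′ end, each folds into a T-stem closed by a T-loop of 7 bases that starts with U54, the base that TRMT2A methylates to 5-methyluridine and the origin of the name T-loop. The loop also holds A58, which a separate enzyme methylates to 1-methyladenosine, a base that stops reverse transcriptase. During catalysis a uridine methyltransferase forms a covalent bond with its target base; with 5-fluorouridine in that place the bond is not released. Reverse transcription ends at or beside the base that carries the remains of the protein, and the deposited position is the base before the start of the cDNA.

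The genes are shown 5′ to 3′ as DNA of the GRCh37 build, without the post-transcriptional CCA. Capitals mark the T-loop, positions 54 to 60, since the T-loop holds the enzyme's target base. Many FICC-Seq and miCLIP counts lie at the last base before the capitals, which belongs to the T-stem and is not marked. Genes with the same sequence are shown once.

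tRNA-Val-AAC-1-1: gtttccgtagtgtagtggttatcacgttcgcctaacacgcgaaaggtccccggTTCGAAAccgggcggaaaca
tRNA-Val-AAC-6-1: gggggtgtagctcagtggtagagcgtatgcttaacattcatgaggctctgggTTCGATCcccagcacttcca
tRNA-Val-CAC-1-1: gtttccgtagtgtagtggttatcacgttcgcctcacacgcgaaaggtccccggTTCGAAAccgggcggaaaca
tRNA-Val-CAC-3-1: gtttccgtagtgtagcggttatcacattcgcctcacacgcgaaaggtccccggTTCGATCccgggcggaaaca
tRNA-Val-CAC-8-1: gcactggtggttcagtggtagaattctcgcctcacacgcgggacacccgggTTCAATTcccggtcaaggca
tRNA-Val-TAC-1-1: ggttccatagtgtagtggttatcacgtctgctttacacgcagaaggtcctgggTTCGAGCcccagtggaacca
tRNA-Val-TAC-2-1: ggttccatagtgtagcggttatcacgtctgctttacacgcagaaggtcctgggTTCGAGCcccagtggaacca
tRNA-Val-TAC-3-1: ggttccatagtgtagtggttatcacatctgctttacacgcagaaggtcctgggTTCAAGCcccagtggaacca

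tRNA-Val-AAC-1-1 lies at chr3:169490018-169490090 on the plus strand, and the same sequence stands at tRNA-Val-AAC-1-3 (chr5:180596610-180596682, plus) and tRNA-Val-AAC-1-4 (chr5:180645270-180645342, minus). tRNA-Val-AAC-6-1 lies at chr6:28703206-28703277 on the minus strand. Of the CAC genes, tRNA-Val-CAC-1-1 lies at chr1:161369490-161369562 (minus) and has its listed twin in tRNA-Val-CAC-1-4 at chr5:180600650-180600722 (plus). tRNA-Val-CAC-3-1 lies at chr19:4724647-4724719 (minus), inside an exon annotated to DPP9 on the same strand, and tRNA-Val-CAC-8-1 at chr1:149294666-149294736 (minus). tRNA-Val-TAC-1-1 (chr11:59318102-59318174) and tRNA-Val-TAC-2-1 (chr11:59318460-59318532) are neighbours on the minus strand, the twin of the former, tRNA-Val-TAC-1-2, lies at chrX:18693029-18693101 (minus), and tRNA-Val-TAC-3-1 lies at chr10:5895674-5895746 (minus). Long non-coding RNAs are annotated opposite tRNA-Val-CAC-1-1, tRNA-Val-TAC-1-1 and tRNA-Val-TAC-2-1, but 1 count in all libraries together fell on the strand opposite a valine tRNA.

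The AAC-1 and CAC-1 genes differ in 1 base, the first of the anticodon. Their 21 bases from position 53 to the end occur 14 times in GRCh37, so a read that starts at U54 has to run 2 to 4 bases into the flank behind the gene before it is unique. tRNA-Val-TAC-1-1, tRNA-Val-TAC-1-2 and tRNA-Val-TAC-2-1 share those 21 bases, which occur 3 times, and need 1 to 2 bases of flank, whereas the 21 bases of tRNA-Val-AAC-6-1, tRNA-Val-CAC-3-1, tRNA-Val-CAC-8-1 and tRNA-Val-TAC-3-1 each occur 1 time. Because only reads that map to a single place were deposited, the level of the AAC-1 and CAC-1 tRNAs cannot be read from a low count at these genes, and the split among identical genes is uncertain. 2 members bear little likeness to the other valine tRNAs. tRNA-Val-AAC-6-1 was 88.9% identical to tRNA-Ala-AGC-5-1 and at most 64.4% identical to any other valine gene, and tRNA-Val-CAC-8-1 was 93.0% identical to tRNA-Gly-CCC-1-2 and at most 61.6% identical to another valine gene.

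The libraries held 7002 to 104605 counts in all, of which 95 to 3005 fell on valine tRNAs. The smallest iCLIP library thus limits a locus at 0 to no better than 428 CPM (counts per 1000000 counts of the library), taking 3 counts as the limit that a count of 0 allows. FICC-Seq replicate 2 stood apart in both cell lines. Of the valine counts, 7.72% in HEK293 and 13.0% in HAP1 lay at tRNA positions 1 to 43 in that replicate, against 0 to 3 counts in each of the other 4 FICC-Seq libraries, and the other tRNAs showed the same split, with 4.87% and 8.35% against 0.147% to 0.304%. Calls and values that change without them are given both ways beside the result or at the close. The labels do not say that replicates came from separate cultures, so p-values measure the spread between these libraries, which may be technical. FICC-Seq libraries with the same replicate number also deviated together between the cell lines (correlations of 0.34 to 0.67), as did HAP1 replicate 1 and HEK293 replicate 3 (0.47). The permutation and sign-flip tests below take all libraries as independent, so their p-values may be too small. HEK293 FICC-Seq replicates 1 and 3 carry the same barcode in the labels. They were the closest pair of that method, with a chi-square per degree of freedom of 2.15 over 211 loci, which is still beyond sampling noise, and were kept as separate libraries.

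The counts of each isoacceptor were carried by few genes. In FICC-Seq, tRNA-Val-AAC-6-1 held 77, 67 and 106 counts in HEK293 and 126, 167 and 271 counts in HAP1, which was 250 of 250 and 564 of 572 AAC counts. In iCLIP it held 52, 37 and 23 counts in HEK293 and 93, 62 and 43 in HAP1, and in miCLIP 110 and 300, where its part of the AAC counts was 41.4%. This gene of a divergent sequence was therefore what the AAC values of FICC-Seq measured. tRNA-Val-AAC-1-1 had 0 counts in all 3 HEK293 FICC-Seq libraries, 0, 7 and 0 in HAP1, 6, 7 and 2 in HEK293 iCLIP, 2, 7 and 2 in HAP1 iCLIP, and 67 and 369 in miCLIP. Its 7 FICC-Seq counts came from HAP1 replicate 2.

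For CAC, tRNA-Val-CAC-3-1 had 19, 24 and 24 counts in HEK293 FICC-Seq and 22, 62 and 31 in HAP1, which was 88.9% ± 6.12 (SD, n = 3) and 85.3% ± 5.73 (SD, n = 3) of the isoacceptor. It had 9, 6 and 16 counts in HEK293 iCLIP, 8, 17 and 7 in HAP1 iCLIP, and 128 and 434 in miCLIP. tRNA-Val-CAC-1-1 carried 0, 3 and 0 counts in HEK293 FICC-Seq and 0, 5 and 0 in HAP1, all of them in replicate 2, against 2 to 7 in each iCLIP library and 176 and 674 in miCLIP. It was thus nearly empty in FICC-Seq and had the highest count of the 12 loci in both miCLIP libraries. tRNA-Val-CAC-8-1 held 1 to 6 counts in each FICC-Seq library, 2 to 12 in each iCLIP library, and 75 and 153 in miCLIP.

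For TAC, tRNA-Val-TAC-2-1 led with 95, 100 and 157 counts in HEK293 FICC-Seq and 133, 145 and 192 in HAP1, 13, 21 and 25 in HEK293 iCLIP, 36, 34 and 16 in HAP1 iCLIP, and 94 and 486 in miCLIP. It held 46.5% to 78.8% of the TAC counts, as means over the libraries of each group. The next was tRNA-Val-TAC-3-1, whose 8 to 70 counts per FICC-Seq library are described with the cell lines further on. tRNA-Val-TAC-1-1 and tRNA-Val-TAC-1-2, which share 1 sequence, had 1 to 8 and 4 to 27 counts in the FICC-Seq libraries.

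**Figure D1:**
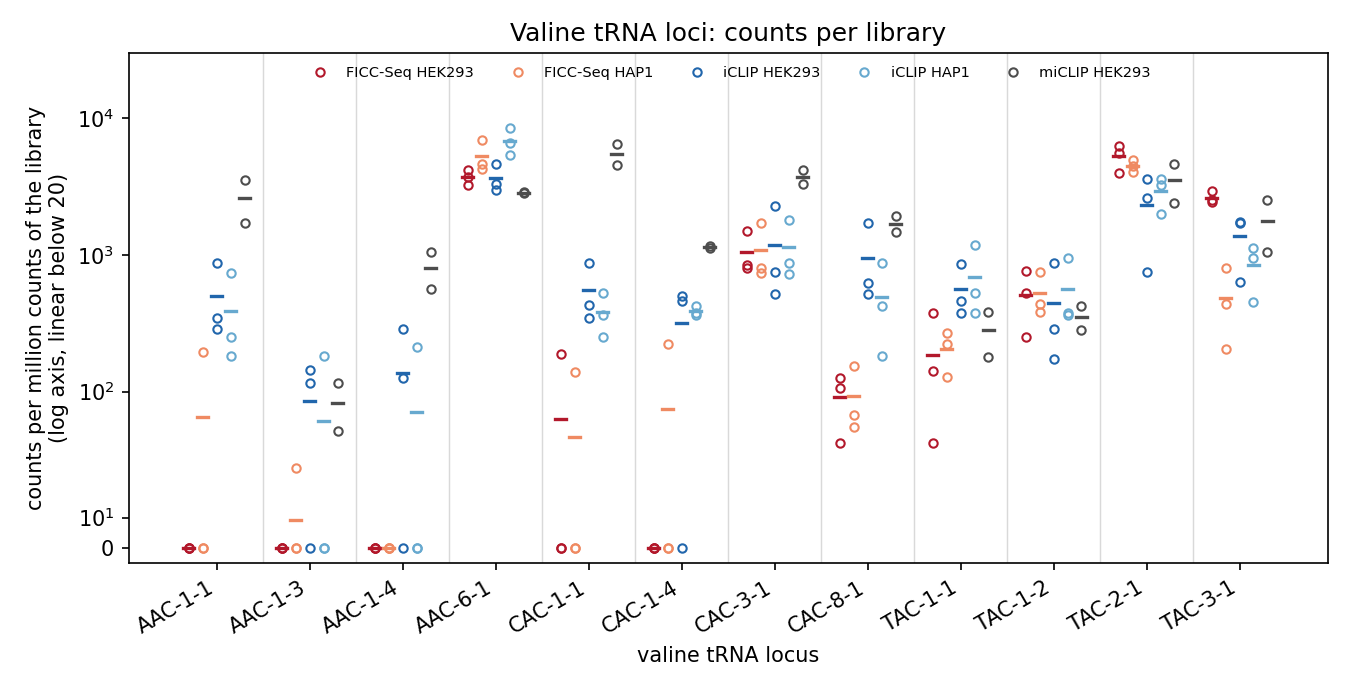
CPM of deposited counts (vertical axis, logarithmic above 20 and linear below) at each of the 12 valine tRNA loci, with 1 point for each of the 14 libraries, coloured by method and cell line, and a dash at each group mean. tRNA-Val-AAC-6-1 and tRNA-Val-TAC-2-1 were measured in every library, whereas the AAC-1 and CAC-1 genes lie at or near 0 in most FICC-Seq libraries and, apart from tRNA-Val-AAC-1-3, have their highest mean in miCLIP.

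The first comparison asked how much of each locus FICC-Seq captured relative to iCLIP. All 316 loci of the cluster list entered the limma fit, and 287 passed the filter on low counts, among them 11 of the 12 valine loci. tRNA-Val-AAC-1-3, with 20 counts over all libraries, was not tested. Over both cell lines, 7 of the 11 were lower in FICC-Seq and 0 were higher at an adjusted p of 0.05, while 36.9% of all loci tested were lower and 24% were higher. The 7 were tRNA-Val-AAC-1-1, tRNA-Val-AAC-1-4, tRNA-Val-AAC-6-1, tRNA-Val-CAC-1-1, tRNA-Val-CAC-1-4, tRNA-Val-CAC-8-1 and tRNA-Val-TAC-1-1. Apart from tRNA-Val-AAC-6-1, they passed the filter through iCLIP or miCLIP libraries and through none of FICC-Seq, so a lower value in FICC-Seq was built into their selection, and the count gives no support of its own.

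tRNA-Val-AAC-6-1 passed the filter in every group and had a log2 difference of -0.77 ± 0.19 between FICC-Seq and iCLIP (SE, limma adjusted p = 0.00189). This call depended on the scaling. Without TMM the difference was -0.15 (limma adjusted p = 0.535) and that of tRNA-Val-TAC-2-1 went from 0.49 (adjusted p = 0.151) to 1.16 (adjusted p = 0.00412), as the median over all loci moved up by 0.62. For tRNA-Val-CAC-3-1, tRNA-Val-TAC-1-2 and tRNA-Val-TAC-3-1, the log2 differences of -0.60, -0.50 and -0.52 did not pass the test, with limma adjusted p from 0.184 to 0.352. The value of tRNA-Val-CAC-3-1 was -0.81 (limma adjusted p = 0.045) without HAP1 FICC-Seq replicate 2.

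For genes with few or no FICC-Seq counts, the fold depends on that replicate and is given as a bound from the summed counts. tRNA-Val-AAC-1-1 had 26 iCLIP and 7 FICC-Seq counts, a scaled ratio of 16 (95% counting interval 6.77 to 43.7). Without HAP1 FICC-Seq replicate 2 there were 0 FICC-Seq counts, and iCLIP was at least 30.1-fold higher, or at least 19.5-fold on library totals, taking 3 counts over the group as the limit. tRNA-Val-CAC-1-4, with 23 and 8 counts, likewise went from a ratio of 12.4 (95% counting interval 5.35 to 32.1) to at least 26.6-fold. tRNA-Val-CAC-8-1 had 39 iCLIP counts against 16 in FICC-Seq, a scaled ratio of 10.5 (95% counting interval 5.74 to 20.1), given as a description since its selection had fixed the direction.

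As shares of all tRNA counts, the 3 isoacceptors differed between the methods in unlike ways. AAC made up 0.444% ± 0.0487 (SD, n = 3) in HEK293 FICC-Seq and 0.682% ± 0.158 (SD, n = 3) in HAP1, against 0.807% ± 0.100 and 1.32% ± 0.414 (SD, n = 3 each) in iCLIP. CAC made up 0.143% ± 0.0600 and 0.166% ± 0.0939 in FICC-Seq, against 0.557% ± 0.223 and 0.419% ± 0.0950 in iCLIP (SD, n = 3 each). Both fell, by 0.502 and 0.333 percentage points as means over the cell lines, in an exact two-sided permutation test of the method within cell line (adjusted p = 0.0125 for each over 15 tests, over 400 labelings). The CAC fall was carried mostly by the CAC-1 genes, whose level cannot be read, and tRNA-Val-CAC-8-1, whose direction was fixed by selection. They held 50 and 39 iCLIP counts against 16 and 16 in FICC-Seq. tRNA-Val-CAC-3-1 held 63 and 182, and was not called in the limma fit of all libraries. The CAC share without the other CAC genes was not tested. The AAC call was lost when shares were taken of all counts (-0.13 points, exact permutation adjusted p = 0.128) or when replicate 2 of both FICC-Seq cell lines was left out (-0.499 points, adjusted p = 0.067). In the latter case the difference was nearly unchanged, and fewer libraries left fewer labelings. TAC was at 1.03% ± 0.0799 and 0.730% ± 0.0261 in FICC-Seq and at 0.8497% ± 0.373 and 0.905% ± 0.211 in iCLIP (SD, n = 3 each), a mean difference of 0.000690 points (exact permutation adjusted p = 1).

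Along the tRNA, the FICC-Seq counts gathered at positions 53 and 54. A count at 54 stands for a cDNA that stopped before U54, and a count at 53 for one in which U54 was the last base copied. For TAC, 89.1%, 76.0% and 85.7% of the counts lay there in the HEK293 libraries and 86.8%, 71.3% and 90.0% in the HAP1 libraries. In iCLIP the same shares were 34.3%, 37.8% and 11.1% in HEK293 and 10.3%, 38.6% and 16.1% in HAP1. The groups did not overlap, and the lowest TAC shares of FICC-Seq came from replicate 2 of each cell line. For AAC the FICC-Seq shares were 61.0%, 76.1% and 69.8% in HEK293 and 57.1%, 74.3% and 60.9% in HAP1, against 2.06% to 14.3% in the 6 iCLIP libraries. For CAC they were 60%, 44.8% and 63.0% in HEK293 and 83.3%, 45.5% and 94.6% in HAP1, against 11.1% to 40%. In every isoacceptor the FICC-Seq libraries thus lay above all iCLIP libraries.

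**Figure D2:**
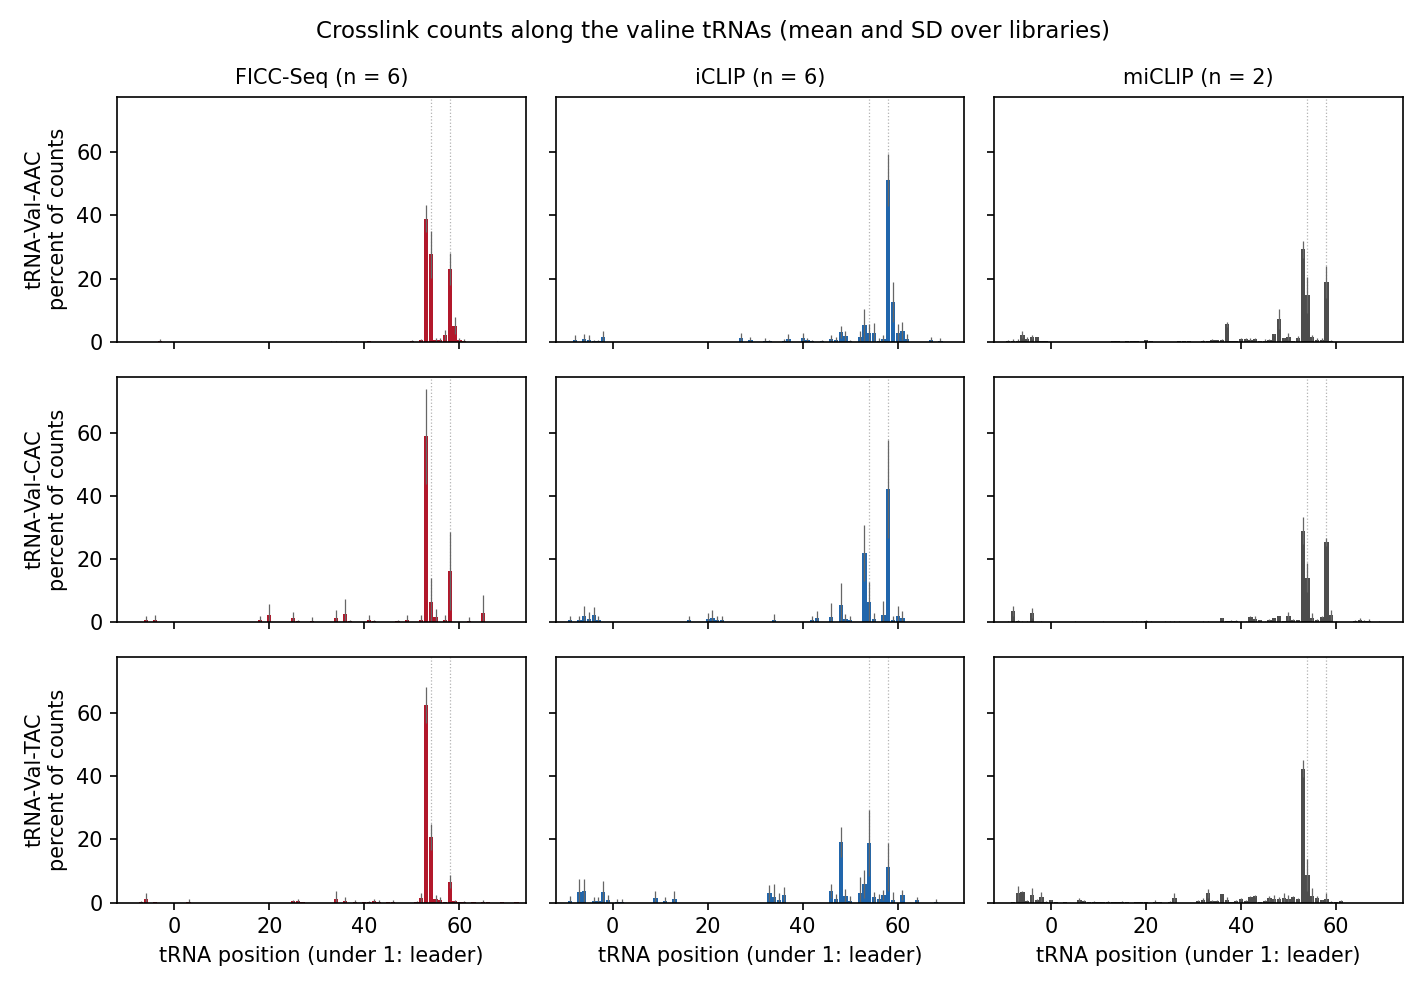
Percent of the counts of an isoacceptor at each tRNA position (horizontal axis, tRNA numbering from the leader to the 3′ end), as the mean over the libraries of a method with bars of 1 SD, in a panel for each isoacceptor and method. FICC-Seq peaks at 53 and 54 in all isoacceptors, with 62.5% of TAC counts at 53, while iCLIP peaks at 58 for AAC and CAC, with 51.2% and 42.2%, and at 48 and 54 for TAC.

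The share at 53 and 54 was higher in FICC-Seq by 58.4 points for AAC, 36.9 points for CAC and 58.5 points for TAC (exact two-sided permutation p = 0.005, adjusted p = 0.0125 for each, the smallest these labelings allow). When each locus was weighted equally, the CAC difference was 24.2 points and did not pass (exact permutation adjusted p = 0.113). The other tRNAs had shares of like size. Over all valine loci the share was 77.1% in HEK293 and 72.8% in HAP1 FICC-Seq and 20.6% and 15.3% in iCLIP, beside 70.6%, 65.8%, 21.02% and 22.7% for the other tRNA loci whose position 54 could be placed. These last values are a description.

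At A58 the mean shares of all counts of an isoacceptor were lower in FICC-Seq than in iCLIP. These shares have the same denominator as those at the FICC-Seq peak tested above, so a larger peak lowers them. The tests of both places are therefore not independent. Among the counts outside that peak, AAC and TAC had a larger part at 58 in FICC-Seq than in iCLIP, and CAC a smaller one. At tRNA-Val-AAC-6-1, 814 FICC-Seq counts held 311 at 53, 220 at 54 and 193 at 58, and 310 iCLIP counts held 13, 10 and 149. At tRNA-Val-TAC-2-1 these were 493, 187 and 66 of 822 against 6, 33 and 11 of 145. The order outside the peak was not tested, and a lower share at 58 is not read as fewer ends there. AAC had 23.3% ± 5.33 of its counts at position 58 in HEK293 FICC-Seq and 22.8% ± 6.05 in HAP1, against 52.6% ± 12.5 and 49.8% ± 3.43 in iCLIP (SD, n = 3 each), and the difference of -28.1 points passed (exact permutation adjusted p = 0.0125). CAC had 35%, 13.8% and 25.9% in HEK293 FICC-Seq and 12.5%, 10.4% and 0% in HAP1, against 50.0%, 45.5% and 22.6% in HEK293 iCLIP and 66.7%, 36.7% and 31.6% in HAP1 iCLIP. These CAC libraries overlapped between the methods in HEK293. The mean difference of -25.9 points passed (exact permutation adjusted p = 0.0321), but leaving out HEK293 replicate 2 or any HAP1 replicate of FICC-Seq, HEK293 replicate 1 or 2 of iCLIP, or HAP1 replicate 1 of iCLIP took the adjusted p to between 0.0536 and 0.0586, with differences from -27.1 to -20.5. The CAC genes behind it differed between the methods. The CAC-1 genes gave 46 iCLIP counts at 58 and had 16 FICC-Seq counts in all. Within tRNA-Val-CAC-3-1 the share at 58 was 14.3% in FICC-Seq and 23.8% in iCLIP. Within tRNA-Val-CAC-8-1 it was 6.25% of 16 and 2.56% of 39 counts. The part of the gene mix in the CAC difference was not tested. TAC had little at this position under either method, with 7.41% and 5.82% in FICC-Seq and 13.0% and 9.52% in iCLIP, as means of 3, and its difference of -4.66 points did not pass (exact permutation adjusted p = 0.213). The run from A58 onwards is unique only with 2 to 3 bases of flank at the TAC genes and 2 to 4 at the AAC-1 and CAC-1 genes. It needs 1 base at tRNA-Val-AAC-6-1 and 0 at tRNA-Val-CAC-3-1 and tRNA-Val-CAC-8-1. The part of this in the shares at 58 was not tested.

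**Figure D3:**
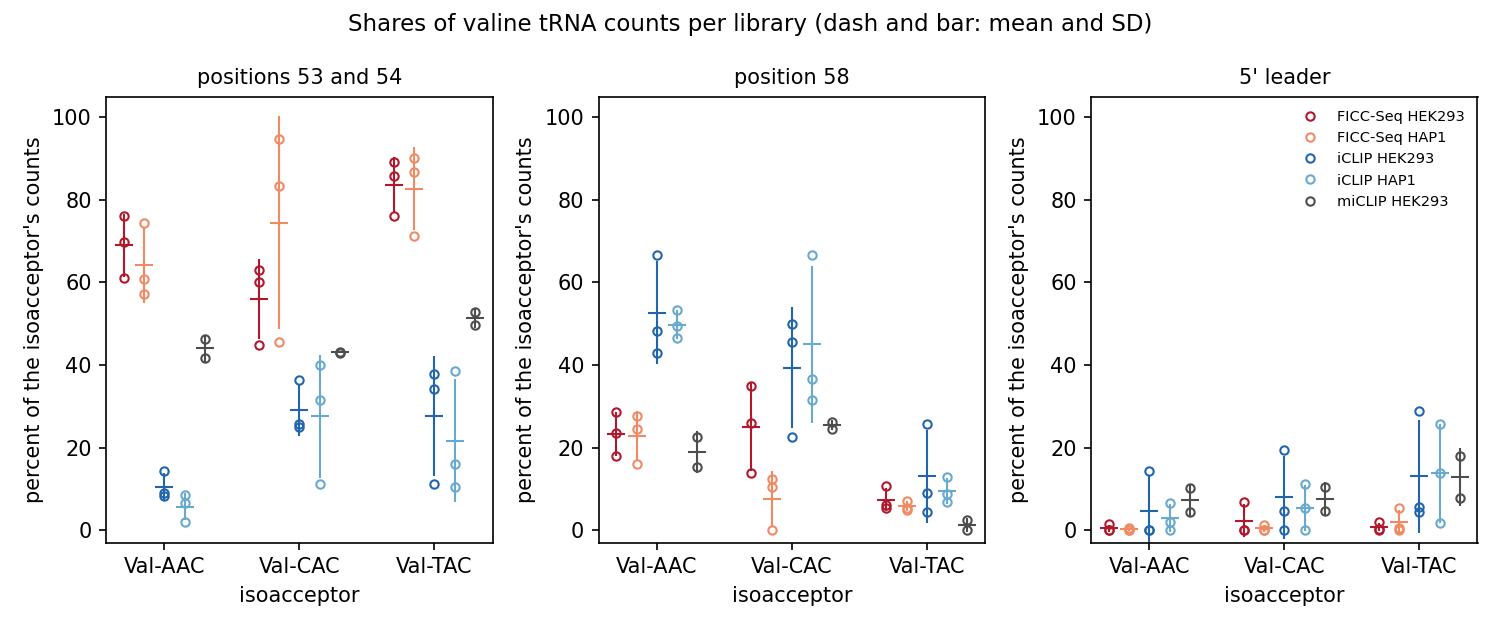
Percent of an isoacceptor's counts at positions 53 and 54, at position 58 and in the leader 5′ of base 1 (panels), with 1 point for each library, grouped by method and cell line, and the mean with a bar of 1 SD. At 53 and 54 the FICC-Seq libraries of each isoacceptor lie above its iCLIP libraries, and at 58 the TAC libraries stay below 26% in every method.

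Within iCLIP, TAC showed another pattern than the others. Position 48, at the junction of the variable loop and the T-stem, held 19.2% ± 4.69 (SD, n = 6) of its counts, as much as position 54 with 18.8% ± 10.5 (SD, n = 6), while position 48 held 5.48% ± 6.78 (SD, n = 6) for CAC. The wider stretch from 44 to 48 held 17.1% to 29.8% of TAC counts in the 6 iCLIP libraries and at most 1.33% in the 6 FICC-Seq libraries. tRNA-Val-TAC-2-1, which held most TAC counts of iCLIP, had 35 of its 145 in this stretch, with 10 in HEK293 and 18 in HAP1 at position 48. The stretch was not particular to this gene. tRNA-Val-TAC-1-1 had 9 of 38 iCLIP counts there, tRNA-Val-TAC-1-2 had 11 of 28 and tRNA-Val-TAC-3-1 had 10 of 60.

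The split between positions 53 and 54 differed between the isoacceptors in FICC-Seq, each of which was carried by few genes. Of the counts at 53 and 54 together, position 53 held 58.9% ± 7.06 for AAC, 75.2% ± 3.45 for TAC and 91.6% ± 7.71 for CAC (SD, n = 6 each). The ranges over libraries were 49.02% to 66.2%, 69.2% to 78.6% and 77.1% to 100%, and the order was the same in 6 of 6 libraries. It was noticed in the data and was not tested. Without replicate 2 of both cell lines the means were 62.6%, 74.9% and 89.5% (n = 4). In miCLIP the values were 66.7% for AAC, 67.3% for CAC and 82.9% for TAC, which is another order. The CAC values of FICC-Seq rest on 0 to 8 counts at position 54 in each library. Genes of an isoacceptor also differed in FICC-Seq. tRNA-Val-TAC-1-2 had 79 counts at 53 and 11 at 54, and tRNA-Val-TAC-2-1 had 493 and 187. A difference between genes and one between isoacceptors cannot be told apart here.

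The difference between isoacceptors in the sum of 53 and 54 was smaller than that between the methods. In FICC-Seq, TAC exceeded AAC by 16.6 points, with TAC higher in 4 of 6 libraries (exact sign-flip permutation adjusted p = 0.17), and CAC by 18.0 points, in 5 of 6 libraries (exact permutation adjusted p = 0.141). Without replicate 2 of both cell lines these values were 25.7 and 12.7 points (exact permutation adjusted p = 0.188 and 0.433, from 4 libraries, with which no p under 0.125 can be had). AAC and CAC differed by 1.35 points (exact permutation adjusted p = 0.837), and this small difference took the opposite sign, -13.0 points, without replicate 2 of both cell lines. In iCLIP, AAC was below CAC by 20.2 points in 6 of 6 libraries, which is the smallest p that 64 sign flips allow, 0.03125, but gave an exact permutation adjusted p of 0.0586. TAC exceeded AAC there by 16.6 points in 5 of 6 libraries (exact permutation adjusted p = 0.104). No pair of isoacceptors therefore passed the test in either method. With position 53 alone, TAC exceeded AAC in FICC-Seq by 23.6 points and CAC exceeded AAC and TAC in iCLIP, as AAC minus CAC was -16.7 and TAC minus CAC -16.2 points (exact permutation adjusted p = 0.0426 each). The iCLIP values of CAC rested mostly on tRNA-Val-CAC-8-1, with 24 counts at 53 and 3 at 54. tRNA-Val-CAC-3-1 had 9 and 7, and the CAC-1 genes had 1 at both positions together. These comparisons were not made without tRNA-Val-CAC-8-1.

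Single loci with enough counts carried these patterns. tRNA-Val-AAC-6-1 had 65.2% of 814 FICC-Seq counts at 53 and 54 and 23.7% at 58, whereas of 310 iCLIP counts 7.42% lay at 53 and 54 and 48.1% at 58. In miCLIP its share at 58 was 0.488%, or 2 of 410 counts, with 37.1% at 53 and 54. tRNA-Val-AAC-6-1 thus had many cDNA ends at A58 in both methods that collected the endogenous enzyme and almost none with the tagged mutant. This does not hold for the isoacceptor, since tRNA-Val-AAC-1-1 had 33.0% of its 436 miCLIP counts at 58. Nor was a lower miCLIP share particular to tRNA-Val-AAC-6-1. The other tRNA loci with position 54 placed had a mean share at 58 of 7.63% in miCLIP. In HEK293 and HAP1 theirs was 18.05% and 19.7% in FICC-Seq and 25.5% and 24.9% in iCLIP. tRNA-Val-CAC-3-1 had 65.4% of 182 FICC-Seq, 25.4% of 63 iCLIP and 41.3% of 562 miCLIP counts at 53 and 54. tRNA-Val-TAC-2-1 had 82.7% of 822, 26.9% of 145 and 48.6% of 580.

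The AAC-1 and CAC-1 genes, whose T-loop reads TTCGAAA, had most of their iCLIP counts at A58. Of the 36 iCLIP counts of the 3 AAC-1 genes, 27 lay at 58, or 75% (exact binomial 95% interval 57.8 to 87.9), and of the 50 iCLIP counts of both CAC-1 genes, 46 did, or 92.0% (80.8 to 97.8). In miCLIP the shares at 58 were 35.6% of 581 counts (31.7 to 39.7) and 39.7% of 1016 counts (36.6 to 42.8), with 46.6% and 36.2% at 53 and 54. tRNA-Val-CAC-1-4 on its own had 77.7% of its miCLIP counts at 58. In FICC-Seq all 8 counts of the AAC-1 genes lay at 53 and 54, and of the 16 counts of the CAC-1 genes 0 lay there and 2 at 58. These intervals cover counting error only, since counts within a library share their source. Reads of both positions have to reach unique flank at these genes, and the part of this in the shares was not tested.

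tRNA-Val-CAC-8-1, the member that resembles a glycine tRNA and whose T-loop reads TTCAATT, kept its peak at position 53 under every method. The share at 53 and 54 was 81.2% of 16 counts in FICC-Seq, 69.2% of 39 in iCLIP and 77.2% of 228 in miCLIP. It thereby differed from tRNA-Val-AAC-6-1, tRNA-Val-CAC-3-1 and tRNA-Val-TAC-2-1, all of which fell to under 30% at these positions in iCLIP.

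**Figure D4:**
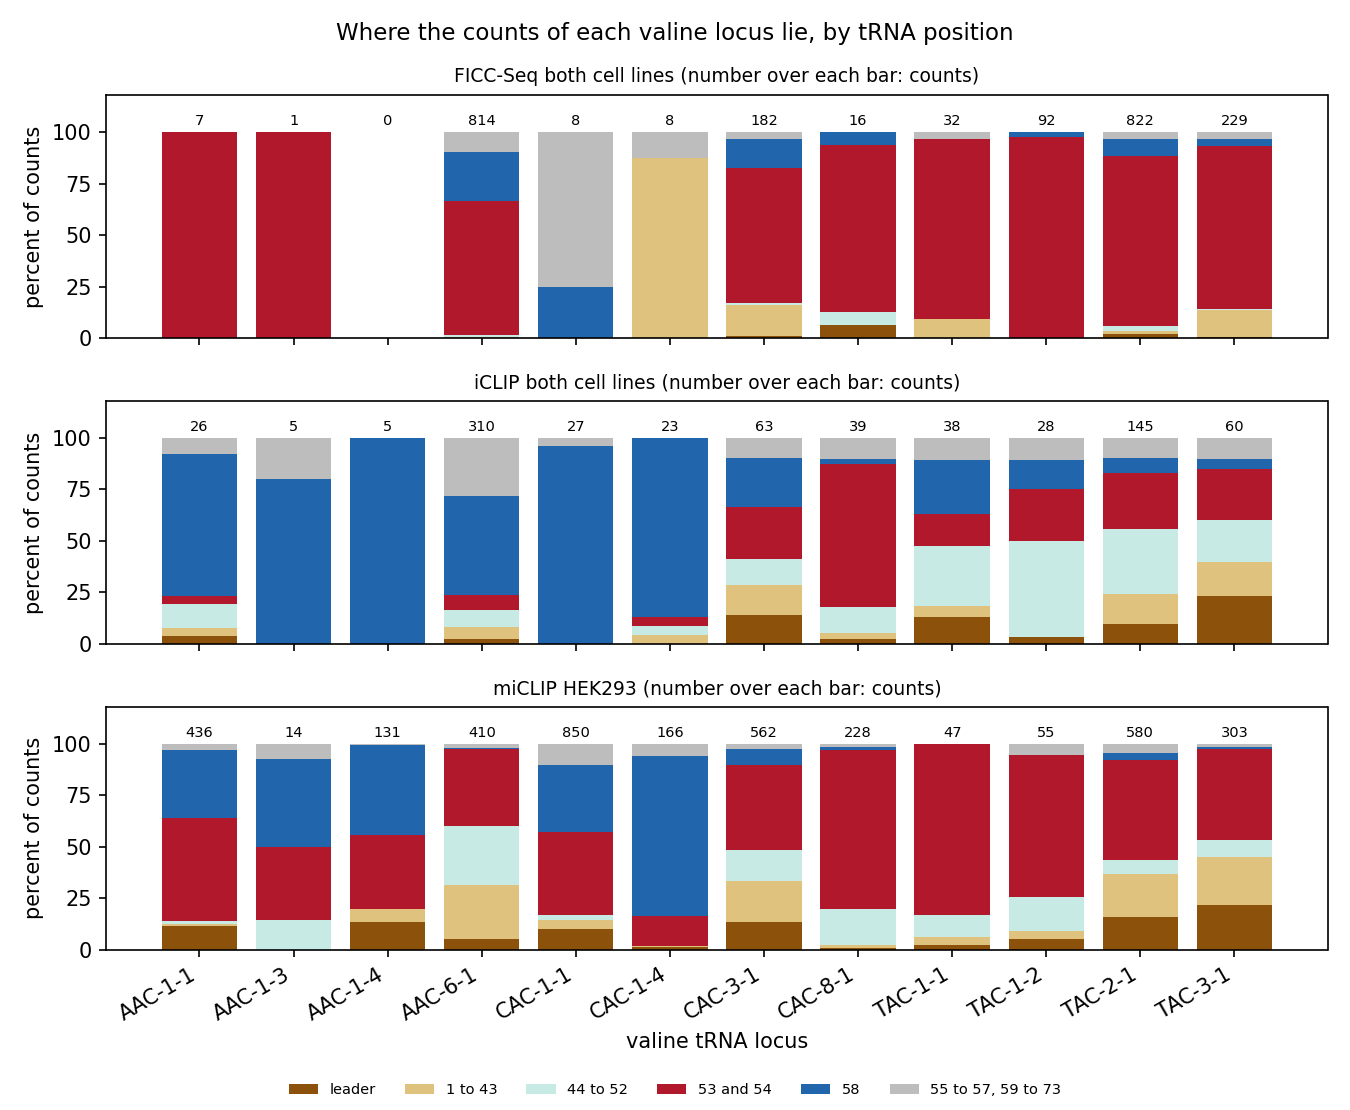
Share of the counts of each valine locus by place in the tRNA (stacked colours, adding to 100%), pooled over the libraries of a method, with the pooled count over each bar. tRNA-Val-CAC-8-1 is mostly 53 and 54 in all 3 methods, the AAC-1 and CAC-1 genes are mostly 58 in iCLIP, and bars with few counts, such as the 8 and 16 FICC-Seq counts of those genes, carry wide counting error.

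miCLIP of the tagged catalytic mutant was compared with FICC-Seq in HEK293, the cell line that both share. Of the 11 valine loci tested, 6 were higher in miCLIP and 0 were lower, beside 46% of all loci higher and 31.4% lower, with a median log2 difference of 0.49 over all loci. The 6 were the AAC-1 and CAC-1 genes tested and tRNA-Val-CAC-3-1 and tRNA-Val-CAC-8-1, and all but tRNA-Val-CAC-3-1 passed the filter through no FICC-Seq library, so their selection had fixed the direction. tRNA-Val-CAC-3-1, with 128 and 434 counts against 19, 24 and 24, passed in every group and was higher by 2.28 ± 0.40 on the log2 scale (SE, limma adjusted p = 5.14e-05). For tRNA-Val-CAC-8-1, with 75 and 153 counts against 1, 2 and 3, the scaled ratio of the summed counts was 23.8 (95% counting interval 10.7 to 65.4), again a description. Against 0 FICC-Seq counts, miCLIP was at least 90.8-fold higher at tRNA-Val-AAC-1-1, 34.6-fold at tRNA-Val-CAC-1-4 and 27.3-fold at tRNA-Val-AAC-1-4. For tRNA-Val-CAC-1-1, with 850 counts against 3, the scaled ratio was 177 (95% counting interval 60.4 to 860).

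No TAC locus passed this test. The log2 differences were -0.20 at tRNA-Val-TAC-2-1, -0.24 at tRNA-Val-TAC-3-1, -0.01 at tRNA-Val-TAC-1-2 and 1.39 at tRNA-Val-TAC-1-1, the last with a limma adjusted p of 0.0773 that became 0.0375 without HEK293 FICC-Seq replicate 2 and 0.0285 without miCLIP replicate 1. tRNA-Val-AAC-6-1 had a difference of 0.01. CAC, at 1.95% and 2.28% of tRNA counts in the miCLIP libraries, thus went from the isoacceptor with the fewest counts in FICC-Seq to the one with the most. This change of rank rested on the CAC-1 genes, whose level cannot be read from their low FICC-Seq counts. They held 1016 of the 1806 CAC counts in miCLIP. tRNA-Val-CAC-3-1 and tRNA-Val-CAC-8-1 held 562 and 228, against 985 for all TAC genes.

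Counts 5′ of base 1, in the leader that RNase P removes from the precursor, were unevenly spread over the libraries. Pooled over a group, they made up 416 of 3782 valine counts in miCLIP (11%), 28 of 343 in HEK293 iCLIP (8.16%), 25 of 426 in HAP1 iCLIP (5.87%), 7 of 905 in HEK293 FICC-Seq (0.773%) and 14 of 1306 in HAP1 FICC-Seq (1.07%). Single libraries decided each of these shares. miCLIP replicate 1 had 41 of 777 (5.28%) and replicate 2 had 375 of 3005 (12.5%). HEK293 iCLIP replicate 3 gave 23 of the 28, and the share was 2.09% without it, and in HAP1 iCLIP the libraries ran from 0.633% to 12.6%, with 3.93% left without replicate 3 and 8.96% without replicate 2. In FICC-Seq, replicate 2 gave 6 of the 7 counts in HEK293 and 13 of the 14 in HAP1, and without it the shares were 0.152% and 0.118%. No order of the groups is read from these shares. All leader counts lay within 10 nt of base 1. Of the 87 leader counts of tRNA-Val-CAC-1-1 in miCLIP, 71 were 9 nt before base 1, and of the 75 of tRNA-Val-CAC-3-1, 64 were 5 nt before it. tRNA-Val-TAC-2-1 had 40 of 91 at 8 nt, tRNA-Val-AAC-1-1 27 of 50 at 7 nt and tRNA-Val-TAC-3-1 25 of 66 at 3 nt. The most used positions of these genes thus lay 3 to 9 nt before base 1, and tRNA-Val-AAC-1-4 (17 of 18) and tRNA-Val-AAC-6-1 (12 of 21) shared the 5 nt of tRNA-Val-CAC-3-1.

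The last comparison was between the cell lines. In FICC-Seq 1 of the 11 valine loci tested differed, tRNA-Val-TAC-3-1, beside 11.8% of all loci (5.57% higher in HEK293 and 6.27% lower). It stood at 2951, 2503 and 2427 CPM in HEK293 and at 437, 805 and 205 CPM in HAP1, so the groups did not overlap. The log2 difference was 2.51 ± 0.51 (SE, limma adjusted p = 0.00249). It stayed between 1.88 and 3 and past the test when each library was left out in turn, and was 3.12 (limma adjusted p = 0.00169) without replicate 2 of both cell lines. In HAP1 replicate 2, 21 of the 29 counts lay at positions 1 to 43. With positions 53 and 54 alone, the levels were 2698, 1752 and 2251 CPM in HEK293 and 404, 194 and 180 CPM in HAP1.

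The other TAC genes did not share this difference. tRNA-Val-TAC-3-1 made up 31.0% ± 6.18 of the TAC counts in HEK293 FICC-Seq and 8.43% ± 5.15 in HAP1 (SD, n = 3 each), while tRNA-Val-TAC-2-1, which differs from it by few bases, made up 60.8% ± 8.04 and 78.8% ± 8.98 (SD, n = 3 each). In iCLIP, tRNA-Val-TAC-3-1 held 29.7% ± 2.66 of the TAC counts in HEK293 and 17.8% ± 10.4 in HAP1 (SD, n = 3 each), from 11, 14 and 12 counts and 5, 9 and 9 counts. Its levels there were 631, 1753 and 1714 CPM in HEK293 and 454, 956 and 1120 CPM in HAP1, and these groups overlapped. In iCLIP 0 of 11 valine loci passed the limma test between the cell lines, where 1 of all 287 loci (0.348%) did and 33 had an unadjusted p under 0.05. Under the replicate block 5 loci passed, again 0 of them valine loci. Whether the cell line difference of tRNA-Val-TAC-3-1 itself differed between FICC-Seq and iCLIP was tested as an interaction, which gave a log2 value of 1.79 ± 0.90 (SE, limma adjusted p = 0.534). From counts of captured RNA, less of the tRNA per cell and less capture per tRNA cannot be told apart.

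**Figure D5:**
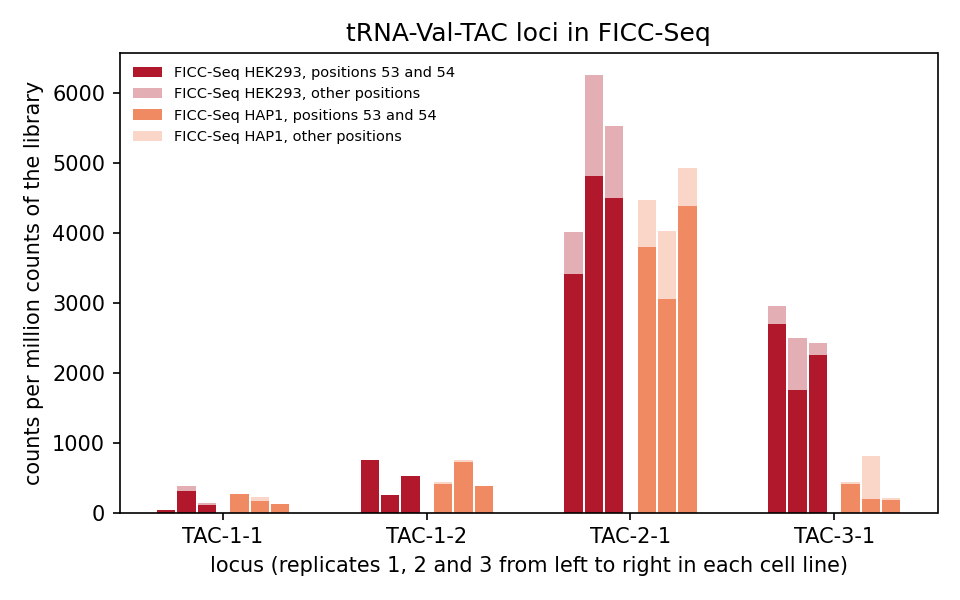
CPM at the 4 tRNA-Val-TAC loci in each FICC-Seq library, by cell line and replicate, with bars from 0 and the dark part of each bar standing for positions 53 and 54. tRNA-Val-TAC-3-1 reaches 2427 to 2951 in HEK293 and 205 to 805 in HAP1, with a mostly light bar in HAP1 replicate 2, and tRNA-Val-TAC-2-1 is high in both cell lines.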

How the data were processed

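The data were 14 libraries of FICC-Seq, iCLIP and miCLIP in 5 groups. Per the labels and methods, the authors removed duplicates by random barcode, mapped reads with bowtie to hg19 (GRCh37) through the iCount server and kept reads that mapped to 1 place. The deposited values are cDNA counts per position, with the sign giving the strand. The signed column was not recorded as plain counts, and the planned count model was not run on its absolute values. It was replaced by limma 3.58.1 (R 4.3.3) with voom weights on TMM-scaled library totals.

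Absolute counts were summed over each locus. Position 54 was placed from the sequence by pairing the T-stem (at least 4 pairs) and acceptor stem (at least 5 pairs), which worked for 231 of 248 tRNA loci. Loci with at least the CPM of 10 counts at median depth in 2 libraries, and 15 counts in all, were tested in 1 fit with 5 groups, with Benjamini-Hochberg adjustment over all 287. Shares were compared by exact permutation of the method within cell line, or by sign flips over libraries between isoacceptors, adjusted over 15 tests. Intervals are exact binomial at 95% and, like the limit of 3 counts for a 0, cover counting error only. PCR reads were collapsed by barcodes of 5 random bases, so frequent positions can saturate. The tests recovered 60% of 20 loci changed by 2-fold and 100% of 20 changed by 4-fold in counts simulated for FICC-Seq against iCLIP over 241 loci, and called 0.995% of unchanged loci.

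The valine loci are all members of the list and were all named. They, and the lists and alternatives, were chosen with earlier results of these data known. Replicates differed beyond sampling noise in every pair (chi-square per degree of freedom 1.59 to 7.90), so none was taken as a repeat. Replicate numbers are in the labels: deviations of libraries with the same number correlated over the 287 loci at 0.34 to 0.67 between the cell lines in FICC-Seq and at 0.11 to 0.26 in iCLIP, but at -0.10 to 0.24 between FICC-Seq and iCLIP in HEK293 and 0.09 to 0.23 in HAP1, so the numbers were taken to pair libraries between the cell lines and not between the methods. In FICC-Seq, libraries with different numbers ran from -0.59 to 0.47 between the cell lines. The highest of these, HAP1 replicate 1 with HEK293 replicate 3, lay above the same-number values of replicates 1 (0.40) and 3 (0.34). Only replicate 2 (0.67) thus stood out there, and a pairing by number is not shown beyond it. The main tests still took all libraries as independent and did not use the pairing between the cell lines. For the shares, the replicate block paired FICC-Seq with iCLIP by number, so it does not cover that pairing either. Alternatives covered scaling, filter, positions, weights, the replicate block and leaving out each library.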

Additional observations from a re-analysis of the deposited data

Results flagged for a closer look

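Some genes with the sequence of a valine tRNA were not in the cluster list and entered no comparison. Of 6 such copies, 3 held more counts in the miCLIP libraries together than the 3 that a count of 0 allows. A copy of tRNA-Val-AAC-1-1 on chromosome 5 held 5 counts, one on chromosome 6 held 6, and a copy of tRNA-Val-CAC-1-1 on chromosome 6 held 11. In any single group the unlisted copies had 0 to 11 counts each. The listed gene with most counts of the same sequence, tRNA-Val-CAC-1-1, held 850 in miCLIP.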

How the results depend on the processing

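The higher share at 53 and 54 in FICC-Seq kept its call for AAC and TAC under each alternative that gave a value, and for CAC under all but equal weights for loci, at 24.15 points. With position 53 alone, FICC-Seq TAC minus AAC (23.56), iCLIP TAC minus CAC (-16.16) and iCLIP AAC minus CAC (-16.72) passed, and FICC-Seq AAC minus CAC turned to -19.89 (exact permutation adjusted p = 0.0426 each). That last value also turned with equal weights (-0.4247), without single counts (-2.571) and without FICC-Seq replicate 2 of both lines (-13.0), an alternative chosen after seeing the data, and ran from -4.636 to 8.364 over single left-out libraries. Without tRNA-Val-AAC-6-1, iCLIP TAC minus AAC (22.86) and AAC minus CAC (-26.46) passed, and shares of FICC-Seq AAC could then not be given. No alternative left out tRNA-Val-CAC-8-1, which gave most of the CAC counts of iCLIP at position 53. With positions 57 to 58, TAC passed at -6.939 points. The CAC share at 58 missed the test under the replicate block (-25.89, exact permutation adjusted p = 0.0804) and without both replicates 2 (-23.8), and ran from -30.08 to -20.47 over left-out libraries. AAC as a percent of tRNA counts missed it as a percent of all counts (-0.13) and without both replicates 2 (-0.4986), and TAC, with no difference, turned sign with the collision correction (-0.03), without both replicates 2 (-0.02081), and over left-out libraries (-0.1002 to 0.0836). Loci called between cell lines in iCLIP numbered 4 without TMM, 5 under the replicate block, 5 with median-of-ratios scaling, 9 with limma-trend, 3 without both replicates 2, 0 when fitted alone, and 1 to 4 over left-out libraries, none of them valine loci. In FICC-Seq they numbered 19 with limma-trend and 21 to 39 over left-out libraries (21 without HEK293 replicate 1), and tRNA-Val-TAC-3-1 was called under each. The replicate block changed no other call. Limma-trend also lost tRNA-Val-AAC-1-4 between FICC-Seq and iCLIP (-1.01, adjusted p = 0.0892). The planned DESeq2 alternative was not run, and median-of-ratios scaling with limma took its place. The cause of these changes was not tested. Depth limits CAC most, with 18 to 32 counts per iCLIP library.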
